A study of Mus musculus with 6 samples.

Results

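The step of T cell receptor (TCR) signaling that runs from Ras activation to ERK was followed through 7 genes, which were taken by symbol from the deposited read counts per gene. They encode the Ras exchange factors Rasgrp1, Sos1 and Sos2, the GTPase Nras, and the kinases Braf (a Raf), Map2k1 (MEK1) and Mapk3 (ERK1). All 7 were found among the 48397 genes counted, and all 7 were among the 12312 genes kept by the filter on low counts. The samples were 6 RNA-Seq libraries of stage 0 iNKT cells, the earliest thymic iNKT cells after positive selection, 3 from wild-type (WT) BALB/c mice and 3 from SKG mice, all 8 to 10 weeks old and given no treatment named in the labels. SKG mice carry a hypomorphic allele of Zap70, the kinase that relays the TCR signal, on the same BALB/c background, so the allele was present in every cell of the animal. Each library came from about 1000 sorted cells (CD24+ CD69+ CD44-, CD8-, CD4 low or negative, and stained by CD1d tetramer) of the pooled thymi of 3 mice, and a replicate is therefore a pool. The comparison asked whether weaker TCR signaling altered gene expression at this first stage, here for the genes that carry the signal onwards.

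After TCR ligation, Zap70 phosphorylates adaptors that bring Grb2 and Sos to the membrane and activate phospholipase C, whose product diacylglycerol recruits Rasgrp1. Rasgrp1 and Sos load Ras with GTP, Ras-GTP activates Raf, Raf phosphorylates MEK, and MEK phosphorylates ERK, which then switches on early genes such as those of the Egr family. In thymocytes Rasgrp1 is the exchange factor known to be needed for positive selection, and Ras and ERK activity is known to drive the induction of Egr genes there. These are background facts on the proteins, whereas the libraries measured mRNA alone.

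The libraries held 37176544 to 43115544 reads on genes, and 10835 to 14791 genes had at least 10 reads, with overlapping ranges between the genotypes. Of 5 genes listed for stage 0 iNKT cells (Cd3e, Cd24a, Cd69, Egr2 and Zbtb16), all 5 were detected, with a summed level of 2565 to 3129 CPM (reads on a gene scaled to the same TMM-normalized total in each library) in BALB/c and 2008 to 2357 in SKG. The summed level of 7 double-positive thymocyte markers was 43.0 to 423 CPM in BALB/c and 71.9 to 172 in SKG, with all 7 detected. BALB/c replicate 1 had the highest sum, and the same library was the highest for the 6 erythroid markers (69.7 CPM against at most 1.57 in the others, with Klf1 at 0) and the 7 B cell markers (94.9 CPM, against 7.40 to 45.0 in SKG). The sum of 6 myeloid markers was highest in SKG replicate 3 (135 CPM) and BALB/c replicate 1 (64.8 CPM) and at most 8.88 CPM elsewhere, and it rested on 2 genes, Lyz2 and Cd68, with Cd14 at 0 in every library. The 6 thymic epithelial markers summed to 33.7 to 106 CPM in BALB/c and 57.6 to 93.9 in SKG, with Krt5 and Psmb11 at 0. The 5 markers of mature iNKT cells summed to 747 to 934 CPM in BALB/c and 682 to 914 in SKG, and Tbx21, the transcription factor of iNKT1 cells, was at 0 in all 6 libraries. Zap70 mRNA was at 498, 472 and 374 CPM in BALB/c replicates 1 to 3 and 322, 338 and 409 CPM in SKG replicates 1 to 3, so that the genotypes overlapped, and counts per gene do not show the SKG allele itself.

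Upstream sequence is given for 3 of the genes, because their RNA behaved differently below: Rasgrp1 differed most clearly between the genotypes, Map2k1 spread little, and Sos2 varied from library to library. Each is the 250 bases before the gene start in RefSeq (GRCm38.p6, 5′ to 3′ on the gene's strand, which is the minus strand for all 3). Capitals mark matches on either strand to the Egr motif GCGNGGGCG or to the NFAT core TTTCC, which reads GGAAA on the opposite strand, the binding letters of factors that TCR signals activate. Rasgrp1 lies at chr2:117342878-117343127, Map2k1 at chr9:64253606-64253855 and Sos2 at chr12:69681853-69682102.
Rasgrp1: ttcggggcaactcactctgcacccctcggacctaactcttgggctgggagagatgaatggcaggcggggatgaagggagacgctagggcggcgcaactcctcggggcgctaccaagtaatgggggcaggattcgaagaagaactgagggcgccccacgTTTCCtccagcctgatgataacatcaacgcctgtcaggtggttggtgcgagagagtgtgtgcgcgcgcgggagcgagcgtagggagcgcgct
Map2k1: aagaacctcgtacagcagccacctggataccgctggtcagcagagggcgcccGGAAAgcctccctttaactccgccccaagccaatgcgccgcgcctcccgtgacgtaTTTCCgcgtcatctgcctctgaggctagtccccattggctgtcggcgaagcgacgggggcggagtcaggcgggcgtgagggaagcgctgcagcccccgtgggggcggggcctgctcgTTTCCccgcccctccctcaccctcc
Sos2: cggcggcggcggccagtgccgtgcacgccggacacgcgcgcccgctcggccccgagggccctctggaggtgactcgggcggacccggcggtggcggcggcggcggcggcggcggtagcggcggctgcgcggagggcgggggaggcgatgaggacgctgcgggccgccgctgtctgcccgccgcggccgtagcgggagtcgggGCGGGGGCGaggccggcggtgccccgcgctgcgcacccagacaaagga

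Among the 6 of the 7 genes with an entry, over windows of 250 bases before to 50 after the start, the Egr motif was found once, beginning 48 bases before the start of Sos2, where 5.55% of 32851 RefSeq promoter windows hold it. The NFAT core was found once in Rasgrp1, Sos1 and Braf, 3 times in Map2k1 and not in Sos2 or Nras, against 61.3% of all windows with at least 1 match. The ETS motif CCGGAAG, present in 8.86% of windows, was found in none of the 6. These letter matches describe the windows only. The windows of the 3 genes shown were rich in G and C, with 63.7% in Rasgrp1, 69.0% in Map2k1 and 82.7% in Sos2 against a median of 52.7% over all windows. In the GENCODE models the furthest start of Rasgrp1 and of Map2k1 falls inside the stretch shown, so the RefSeq start is not the only annotated one.

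Rasgrp1, the diacylglycerol-responsive exchange factor, was the most abundant of the 7 genes per exon length and the one whose RNA differed most clearly between the genotypes. The gene lies on chromosome 2 of GRCm38 from 117279993 to 117343001, on the minus strand. It was at 456, 881 and 929 CPM in BALB/c replicates 1 to 3 and at 1522, 1828 and 1398 CPM in SKG replicates 1 to 3. Every SKG library was thus above every BALB/c library, and within each genotype the highest library was 2.04 times the lowest in BALB/c and 1.31 times in SKG. The means were 756 ± 260.2 CPM (SD, n = 3) and 1583 ± 221 (SD, n = 3). The fold change, SKG over BALB/c, was 2.09 with a 95% interval from 1.31 to 3.35 (log2 fold change 1.07, standard error 0.28). The unadjusted p from edgeR's quasi-likelihood test was 0.00788, and adjusted over all 12312 genes it was 0.686, so that Rasgrp1 did not pass a false discovery rate (FDR) of 0.1. In sorted bulk cells a higher level of RNA per cell and a larger share of cells with the RNA cannot be told apart.

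BALB/c replicate 1, where Rasgrp1 was lowest, was also the library with the most double-positive thymocyte, B cell and erythroid marker RNA. Without it the log2 fold change of Rasgrp1 was 0.81 with a smaller standard error of 0.16 (edgeR, adjusted p = 0.984). When this library and SKG replicate 3, the pair with the most Lyz2 RNA, were both left out, it was 0.90 (standard error 0.14, edgeR adjusted p = 0.795). Over all 6 ways of leaving out 1 library the log2 fold change stayed between 0.81 and 1.25, and the unadjusted p from edgeR between 0.00320 and 0.0291. DESeq2 gave a fold change of 2.13 with an adjusted p of 0.135, and limma-voom an adjusted p of 0.576.

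**Figure D1:**
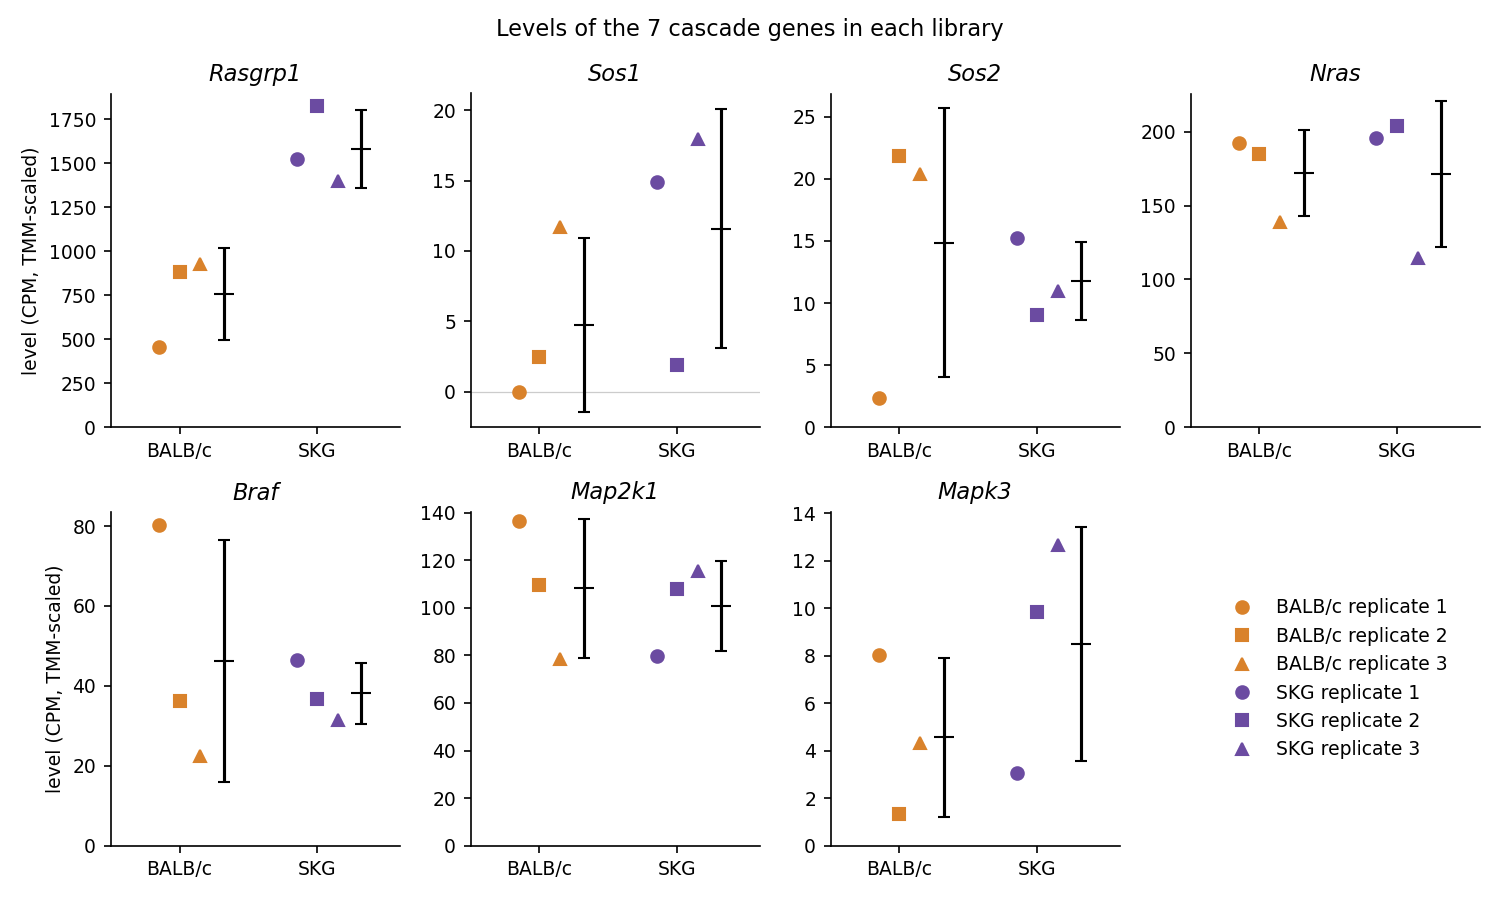
Levels of the 7 genes (CPM) in each library, with 1 panel and 1 linear axis per gene. Points are libraries of BALB/c (orange) and SKG (purple), marked by replicate, and black bars are the mean ± SD of 3 libraries. Rasgrp1 is the gene whose genotypes do not overlap, at 456 to 929 CPM against 1398 to 1828 CPM, and BALB/c replicate 1 stands at an extreme for Sos1, Sos2, Braf and Map2k1.

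Sos1 and Sos2, the Grb2-bound exchange factors, were counted at low and erratic levels. Sos1 (chromosome 17, 80393751 to 80480453) was counted with 1, 92 and 530 reads in BALB/c replicates 1 to 3, against 599, 75 and 650 in SKG. The BALB/c libraries therefore spanned 0.0242 to 11.7 CPM and the SKG libraries 1.93 to 18.0 CPM, with overlap between the genotypes. The fitted fold change of 2.44 had a 95% interval from 0.133 to 44.7 (edgeR, adjusted p = 0.991), and the log2 fold change of 1.29 became 3.21 when BALB/c replicate 3 was left out and 0.71 when BALB/c replicate 1 was. Sos2 (chromosome 12, 69583762 to 69681852) was counted with 98, 809 and 922 reads in BALB/c, against 613, 352 and 398 in SKG. The means were 14.9 ± 10.8 and 11.8 ± 3.15 CPM (SD, n = 3 each). Here too BALB/c replicate 1 was lowest, at 2.38 CPM, while the other BALB/c libraries lay above every SKG library. The fold change of Sos2 was 0.791 with an interval from 0.170 to 3.67 (edgeR, adjusted p = 0.991), and its log2 value of -0.34 became -0.84 without BALB/c replicate 1 and 0.03 without BALB/c replicate 2.

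Nras, the Ras GTPase of the list, was at 192, 185 and 139 CPM in the BALB/c libraries and 196, 204 and 115 CPM in the SKG libraries. Replicate 3 was the lowest of both genotypes, and the means differed by far less than the spread, at 172 ± 29.2 and 171 ± 49.2 CPM (SD, n = 3 each). On chromosome 3 from 103058285 to 103067914, it had a fold change of 0.996 with a 95% interval from 0.638 to 1.56 (edgeR, adjusted p = 0.999).

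Braf, the Raf kinase of the list, was at 80.3, 36.2 and 22.3 CPM in BALB/c and 46.4, 36.7 and 31.4 CPM in SKG. The SKG libraries fell within the range of the BALB/c libraries, whose highest, replicate 1, was 3.59 times the lowest. Braf (chromosome 6, 39603237 to 39725463) had a fold change of 0.825 with an interval from 0.343 to 1.98 (edgeR, adjusted p = 0.991), and the log2 value of -0.28 turned to 0.39 without BALB/c replicate 1.

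Map2k1, which encodes MEK1, was at 137, 110 and 78.4 CPM in BALB/c and 79.6, 108 and 115 CPM in SKG. The genotypes overlapped across almost the whole range, and the fold change was 0.932 with an interval from 0.589 to 1.47 (edgeR, adjusted p = 0.991). The gene lies on chromosome 9 from 64185770 to 64253631. Its log2 fold change of -0.10 moved to 0.11 without BALB/c replicate 1.

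Mapk3, which encodes ERK1, was counted with 331, 50 and 195 reads in BALB/c, against 123, 382 and 457 in SKG. In CPM these were 8.03, 1.35 and 4.32 against 3.05, 9.83 and 12.6, with overlap. The gene (chromosome 7, 126759601 to 126765819) had a fold change of 1.86 with an interval from 0.334 to 10.4 (edgeR, adjusted p = 0.991). Its log2 value of 0.90 ranged from 0.45 without BALB/c replicate 2 to 1.59 without BALB/c replicate 1.

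A gene was called where its adjusted p was below the FDR of 0.1 and its fold change reached 1.5. With edgeR 0 of the 7 genes were called, against 0% of the 12312 genes tested. At an unadjusted p under 0.05, 1 of the 7 was found (Rasgrp1, higher in SKG), against 671 genes or 5.45% of all, 3.07% being higher and 2.38% lower in SKG. For 1 of the 7, again Rasgrp1, the BALB/c and SKG ranges were separate, against 13.9% of all genes, of which 6.77% were higher and 7.12% lower in SKG. DESeq2 called 0 of the 7, against 2.58% of the genes it tested (370 of 14342), and limma-voom called 0 genes in all. With both of these tests Rasgrp1 was again the 1 gene at an unadjusted p under 0.05. The median log2 fold change of the 7 was -0.01, and that of all genes tested -0.02. Of the 7, 3 were higher and 4 lower in SKG.

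The spread between libraries of one genotype set how much could be seen. The within-genotype SD of log2 CPM was 0.43 for Rasgrp1, 0.37 for Nras and 0.35 for Map2k1, below the median of 0.64 over all genes tested. It was 0.69 for Braf, 1.19 for Mapk3, 1.30 for Sos2 and 2.93 for Sos1. By mean CPM, which follows the reads behind a value and not the level per length, Rasgrp1, Nras and Map2k1 stood above 99.5%, 88.8% and 79.3% of genes tested, while Sos2, Sos1 and Mapk3 stood at 35.7%, 29.5% and 26.7%, and Braf at 57.2%.

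To compare levels between genes, CPM were divided by the exon length of each gene in kilobases (kb). On this scale Rasgrp1 was at 81.5 to 326 CPM per kb over the 6 libraries, above the other 6 genes in every library. Nras (21.5 to 38.2 CPM per kb) and Map2k1 (23.1 to 40.3) came next with overlapping ranges, Nras being the higher in 4 of 6 libraries. Both were above Braf (1.61 to 5.79) in all 6. Braf, Mapk3 (0.597 to 5.60) and Sos2 (0.279 to 2.56) could not be ordered, since Braf exceeded Mapk3 in 3 of 6 libraries and Mapk3 exceeded Sos2 in 3 of 6. Sos1 was below Sos2 in 5 of 6 libraries, at 0.00229 to 1.70 CPM per kb.

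**Figure D2:**
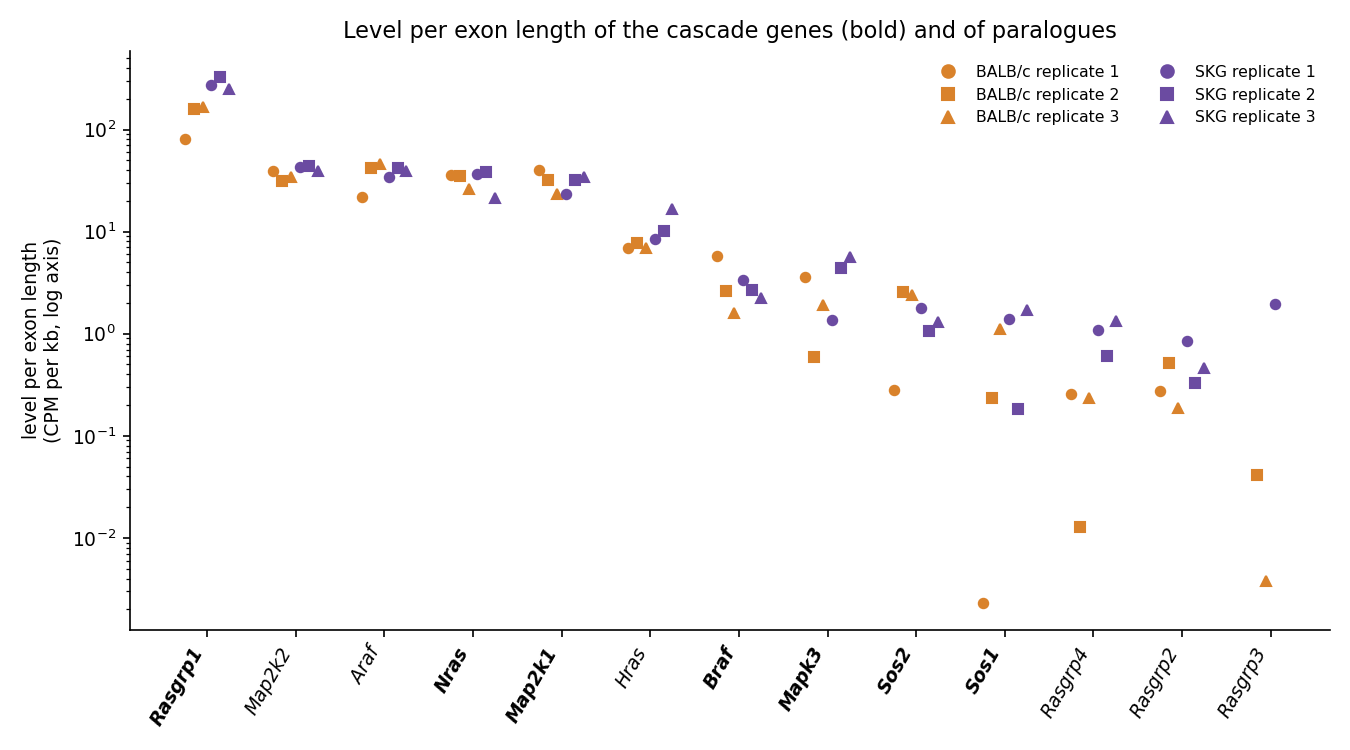
Level per exon length (CPM per kb, log axis) of the 7 genes (bold names) and of 6 paralogues in each library, ordered by the mean over 6 libraries. Colours give the genotype and symbols the replicate, and 3 libraries with 0 reads on Rasgrp3 are not drawn. Rasgrp1 is highest in all 6 libraries, and Sos1 runs from 0.00229 to 1.70 CPM per kb.

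Each step of the cascade has several genes, and the share of each in its family, per exon length, does not depend on how libraries are scaled. Among the exchange factors of the RasGRP family, Rasgrp1 took 99.6% ± 0.20 of the family's RNA in BALB/c, against 99.2% ± 0.569 in SKG (SD, n = 3 each). Rasgrp2 and Rasgrp4 stayed at or under 10.6 CPM in every library. Rasgrp4, known from myeloid and mast cells, was at 1.62, 0.0809 and 1.51 CPM in BALB/c and at 6.97, 3.81 and 8.49 CPM in SKG, without overlap and with a wide interval of the fold change, from 0.712 to 50.3 (edgeR, adjusted p = 0.952). Of all genes tested, 6.77% were higher in SKG without overlap. Exons of Fam98c on the other strand cover 15.4% of the exon length of Rasgrp4. With strand ignored, reads there cannot be assigned to either gene by position. Rasgrp3, best known from B cells, had 456 reads in SKG replicate 1 and at most 9 in any other library, although the summed B cell markers were lowest in SKG replicate 1, at 7.40 CPM. In the SOS family, Sos1 took 0.813%, 8.37% and 31.6% in BALB/c, against 44.0%, 14.6% and 56.8% in SKG. The means of 13.6% and 38.5% differed by 24.9 percentage points, with overlap between the genotypes (exact two-sided permutation test, p = 0.2).

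At the Raf step Araf held most of the RNA of Araf and Braf together. Braf made up 21.1%, 5.85% and 3.42% of the pair in BALB/c, against 8.91%, 5.92% and 5.47% in SKG, so that the genotypes overlapped and BALB/c replicate 1 stood above the other libraries. The means were 10.1% ± 9.59 and 6.77% ± 1.87 (SD, n = 3 each), a difference smaller than the spread, and no test was run on this pair.

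Per exon length the MEK step was nearly evenly divided, Map2k1 taking 47.2% ± 5.92 in BALB/c against 41.3% ± 5.45 in SKG (SD, n = 3 each), with Map2k2 as the rest (exact two-sided permutation test, p = 0.3). By reads, without division by length, Map2k1 took 35% in BALB/c and 29.7% in SKG, so the even split depends on the lengths used. In all, 13 shares within families were tested, and the adjusted p lay between 0.743 and 1. With 3 libraries against 3, p cannot fall below 0.1, so these tests could not have passed 0.05.

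**Figure D3:**
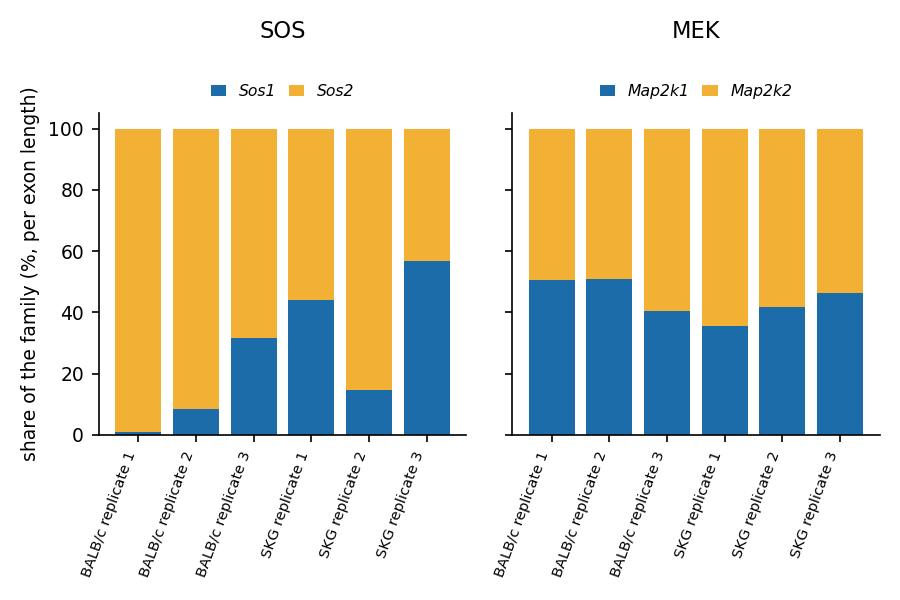
Share of each gene in its family (percent of CPM per kb) in the 6 libraries, for the SOS and MEK families, with bars that add to 100%. The Sos1 share runs from 0.813% to 56.8%, and the Map2k1 share from 35.6% to 50.8%.

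The 7 genes are largely free of reads that could belong elsewhere. Of their exons, only those of Braf overlap another gene (Ndufb2, on the other strand), over 1.05% of the exon length. A search of annotated transcripts for stretches of at least 50 bases at 95% identity found none for Sos1, Sos2, Map2k1 and Mapk3. For Rasgrp1, Braf and Nras the most that any other gene shared was 1.03%, 1.5% and 3.80% of the transcript.

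The other genes of the pathway were taken from 8 lists with 80 genes, of which 71 were tested. None was called by edgeR. At an unadjusted p under 0.05 there were 8 of the 71, 4 higher and 4 lower in SKG, where the share over all genes tested was 5.45%. The genotypes did not overlap for 14 of the 71, 8 higher and 6 lower, where the share over all genes was 13.9%.

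Upstream of Ras, the list of exchange factors and adaptors had 7 tested genes, all with a fold change above 1 and a median log2 fold change of 0.74. Only 2 of the 7 were without overlap between the genotypes, and 6030 of all 12312 genes tested were higher in SKG. Some of these fold changes rested on few or uneven counts. Gab2 reached 572 reads in SKG replicate 3 but at most 64 elsewhere. Rasgrf2 ran from 0.0727 to 11.4 CPM within BALB/c alone. A joint rise of the list was not tested. Ptpn11, the phosphatase Shp2 that promotes Ras activation, was at 10.8, 34.8 and 44.4 CPM in BALB/c and 83.4, 98.3 and 88.7 CPM in SKG. The SKG libraries were thus all above the BALB/c libraries, with a fold change of 3.00 and a 95% interval from 1.27 to 7.14 (edgeR, adjusted p = 0.833). Grb2, the adaptor that carries Sos, had the highest mean CPM of this list, at 174 ± 31.0 and 214 ± 19.7 CPM (SD, n = 3 each), with overlap (edgeR, adjusted p = 0.978). The next list, the other Ras GTPases, had 3 tested genes, all with a fold change above 1 and 2 of them without overlap. Of all genes tested, 6.77% were higher in SKG without overlap. A joint rise of these 3 genes was not tested either. Hras was at 26.7 ± 1.77 and 43.8 ± 15.7 CPM, without overlap (SD, n = 3 each; edgeR, adjusted p = 0.971).

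Genes that restrain Ras, the GTPase-activating proteins and the diacylglycerol kinases, had 9 tested members with a median log2 fold change of 0.11. Dgkz, which removes the diacylglycerol that recruits Rasgrp1, was at 1089, 1188 and 836 CPM in BALB/c and 1267, 1358 and 1479 CPM in SKG. It did not overlap between the genotypes, with a fold change of 1.32 (edgeR, adjusted p = 0.905). Rasal3, with the highest mean CPM of the list, was at 1382 ± 381 and 1493 ± 579 CPM (SD, n = 3 each), with overlap.

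Below Ras, the paralogues Araf and Map2k2 had fold changes of 1.06 and 1.20, and 0 of the 4 genes of this list had an unadjusted p under 0.05 with edgeR. The 9 scaffolds and Raf regulators had a median log2 fold change of 0.29 and 0 genes at an unadjusted p under 0.05. The gene with their highest mean CPM, the 14-3-3 protein gene Ywhaz, was at 1484 ± 116 and 1576 ± 91.9 CPM (SD, n = 3 each). Of 11 ERK substrates, 0 reached an unadjusted p of 0.05. Elk3, an ETS factor with the highest mean CPM among them, was at 533 ± 14.3 CPM in BALB/c and 433 ± 58.3 in SKG (SD, n = 3 each), every SKG library being below every BALB/c library (edgeR, adjusted p = 0.952).

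**Figure D4:**
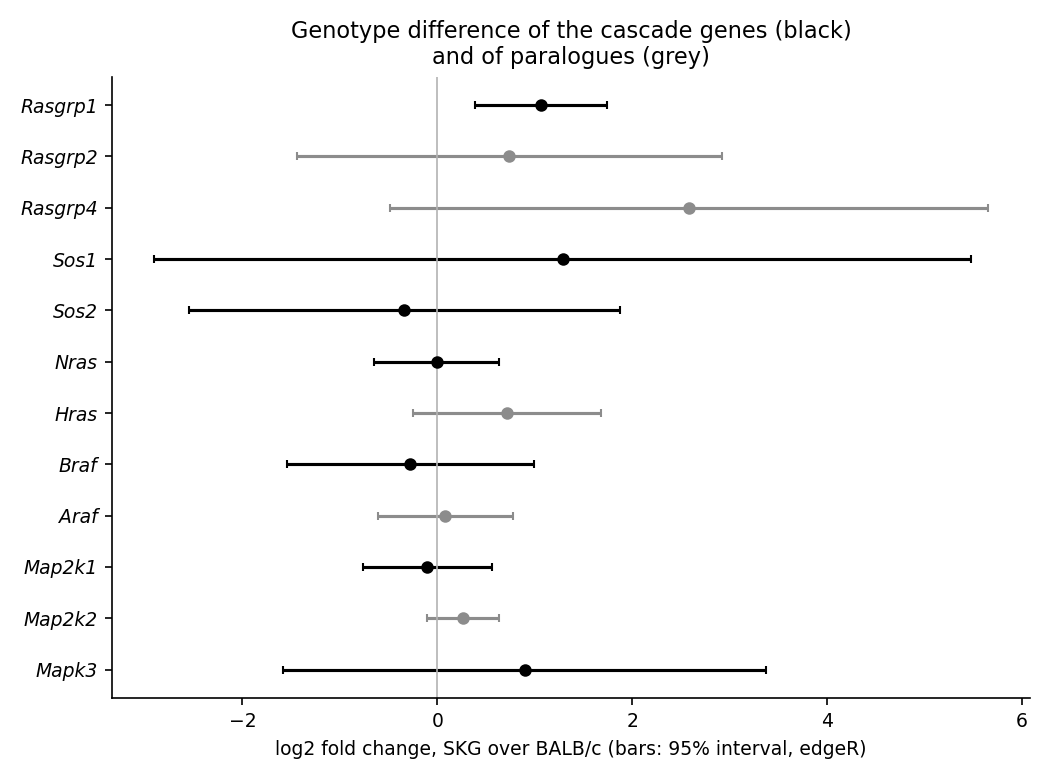
Log2 fold change, SKG over BALB/c, of the 7 genes (black) and tested paralogues (grey), with 95% intervals from the edgeR fit as bars. The interval of Rasgrp1 (0.39 to 1.75) lies above 0, and those of Sos1 (-2.91 to 5.48) and Mapk3 (-1.58 to 3.38) are wide.

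Among 16 tested genes that ERK signaling induces, 4 had an unadjusted p under 0.05 with edgeR, all lower in SKG. Of all genes tested, 2.38% were lower in SKG at this p. The paper had reported lower Egr1 and Egr2 RNA in SKG from these same libraries, and the list was chosen with earlier results known. The count therefore describes the list and is not independent support. Ier2, an immediate-early gene, was at 1071, 799 and 668 CPM in BALB/c and 318, 297 and 266 CPM in SKG. The BALB/c mean was thus 2.88 times that of SKG (log2 fold change -1.53, standard error 0.20, edgeR, adjusted p = 0.380). Egr1, an early zinc finger factor, was at 2012, 1738 and 1604 CPM against 964, 977 and 885 CPM (edgeR, adjusted p = 0.447). DESeq2 called Ier2 and Egr1 among the 80 genes of the lists, and no other. Dusp6, the phosphatase that inactivates ERK, was at 293, 202 and 284 CPM in BALB/c and 108, 184 and 97.3 CPM in SKG (edgeR, adjusted p = 0.817). Egr2, a further Egr factor and needed for iNKT development, was at 1546, 1097 and 1408 CPM against 883, 956 and 493 CPM (edgeR, adjusted p = 0.834). All 4 were without overlap between the genotypes, and the list held 5 such genes in all, each lower in SKG. Of all genes tested, 7.12% were lower in SKG without overlap. Since the 4 were named for their p in these same libraries, their separation is not further support. Over the whole list, however, 8 genes were higher and 8 lower in SKG and the median log2 fold change was -0.14, against -0.02 for all genes tested. The lower sum of the 5 stage 0 markers in every SKG library rested on Egr2 itself: the other 4 summed to 1320 to 1582 CPM in BALB/c and 1196 to 1514 CPM in SKG, with overlap. Of these 4, Cd69 was lower in every SKG library (152 to 250 CPM against 312 to 391), and Cd3e, Cd24a and Zbtb16 overlapped. The levels of Rasgrp1 and those of Ier2, Egr1, Dusp6 and Egr2 were in opposite order between the genotypes, and no relation between them was tested.

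**Figure D5:**
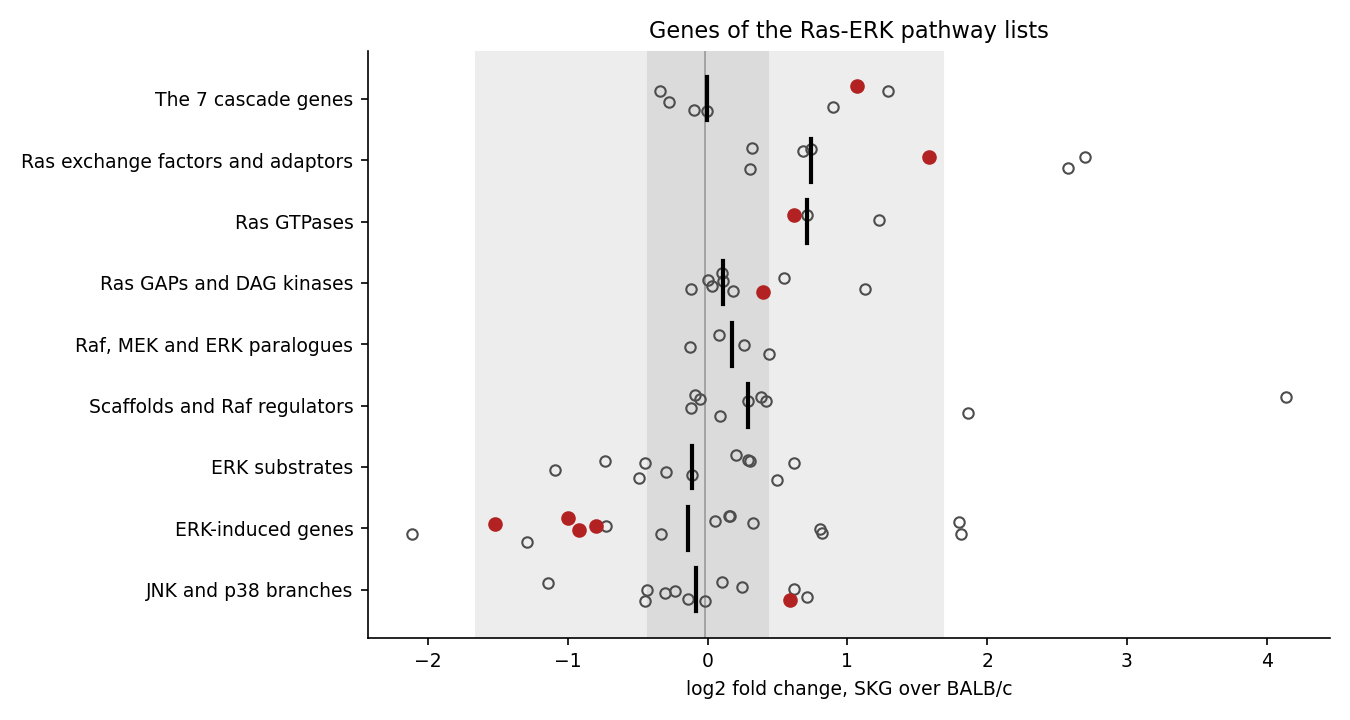
Log2 fold change, SKG over BALB/c, of the tested genes of the 7-gene cascade and of 8 other pathway lists. Each circle is a gene, filled red at an unadjusted p under 0.05, black lines are list medians, and the dark and light bands hold the middle 50% and 90% of all 12312 genes (5th to 95th percentile -1.66 to 1.68). The 4 red genes of the ERK-induced list lie below 0, and the red genes of the other lists, Rasgrp1 included, lie above 0.

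The genes whose pattern was most like that of Rasgrp1 were taken by the root-mean-square difference between log2 CPM values, each centred on the mean of the gene over the 6 libraries. They were Snn (0.14), 4930503L19Rik (0.15), Galnt6 (0.16), Cyld (0.16) and Patz1 (0.16). Since they were picked for this likeness over the same libraries, their order of libraries is fixed by the choice and is given as a description. Galnt6, for example, was at 78.5, 153 and 142 CPM in BALB/c and 284, 252 and 263 CPM in SKG. The other 6 cascade genes were not among the nearest, with differences from 0.75 for Nras to 2.29 for Sos1. With 12312 genes tested, they ranked from 3565 (Nras) to 10030 (Sos1) among the other genes by likeness. Such a difference also includes the spread between libraries of one genotype, so a large value alone does not show another pattern.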

How the data were processed

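RNA of sorted stage 0 iNKT cells was sequenced as 3 BALB/c and 3 SKG libraries of 50-nt reads. Per the labels and methods, the authors used HISAT2 2.1.0 for alignment to GRCm38 and featureCounts (Subread 1.4.4, Ensembl release 85) for exon counts, with a mapping quality of at least 10 and strand ignored. The deposited counts are whole reads per gene, not normalized. Labels and paper name different amplification kits, 18 preamplification cycles being given in the labels, and reads carry no molecular identifiers. A second deposited table with the authors' own DESeq2 comparison (fold changes, errors and p-values) was not used.

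Counts were filtered with filterByExpr, normalized with TMM and tested with edgeR 4.0.16 (quasi-likelihood F test, R 4.3.3) on all 6 libraries without covariates, with Benjamini-Hochberg adjustment over 12312 genes. Standard errors were obtained from the log2 fold change and F, and 95% intervals use the t quantile of the fit. The thresholds, an FDR of 0.1 and a fold change of 1.5, follow the paper's methods, which used DESeq2. Log2 CPM used a prior count of 2. DESeq2 1.42.0 and limma 3.58.1 (voom) were alternatives, with other scalings and filters, replicate blocks, and each library left out. Shares of paralogues were tested by exact permutation, two-sided. The edgeR step was tested on simulated data.

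Positions and exon lengths came from GENCODE M21 (GRCm38) by symbol, matched for 46467 of 48397 genes. Promoter windows came from RefSeq (GRCm38.p6), matched for 6 of 7 genes, and BLAST 2.17.0 was used for similar transcripts. The genes, lists and tests were chosen with earlier results of these data known. Other genes were named by rule: genes of the lists with an unadjusted p under 0.05, the gene of each list with the highest mean CPM, paralogues, the 5 genes nearest to Rasgrp1, and Zap70. Genes singled out beyond these (such as Mapk14) were chosen after their values were seen. Some genes of the lists enter the counts but are not reported here by name. Replicates are separate pools of mice, and p-values set the difference between the genotypes against the spread between those pools.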

Additional observations from a re-analysis of the deposited data

How the results depend on the processing

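The number of genes called stayed at 0 with limma-voom, other size factors, library size alone, a stricter filter, either replicate block, each library left out, and, added after seeing the data, 2 libraries left out together. DESeq2 without shrinkage called 370 genes (177 higher and 193 lower in SKG), and edgeR without a filter on low counts called 2, neither a cascade gene. At 0 calls in the fit as reported, 671 genes had an unadjusted p under 0.05. The log2 fold change of Rasgrp1 kept its direction in 15 of 15 alternatives (0.81 to 1.33, adjusted p 0.135 to 1), as did those of Sos1 (0.24 to 4.33) and Mapk3 (0.45 to 1.76). Sos2 reversed with limma-voom (0.18) and with the replicate block by title number (0.021) or library number (0.47), and ranged from -0.84 to 0.030 with 1 library left out. Nras reversed with DESeq2 (0.016), median-ratio size factors (0.012), the stricter filter (0.0049) and BALB/c replicate 1 and SKG replicate 3 left out together (0.31), and ranged from -0.14 to 0.23 with 1 left out. With the same 2 left out Braf was at 0.52 and Map2k1 at 0.0055, and with 1 left out they ranged from -0.60 to 0.39 and from -0.28 to 0.11. The values of these 4 genes lay within 1 standard error of 0 in the fit as reported, and the cause of the reversals was not tested. Those of Sos1 (1.29, standard error 1.75) and Mapk3 (0.90, standard error 1.04) did so too, although they kept their direction. Median-ratio scaling and library size alone moved the median of all genes by 0.018 and -0.035 on the log2 scale.

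Titles share replicate numbers, but deviations of same-numbered libraries correlated at -0.145 to -0.00962, and 0 of 6 libraries correlated best with their own number, so the numbers were not taken as a pairing. With the replicate block by title number Rasgrp1 was at 1.13, and with that by library number, where only 2 numbers are shared, at 1.33. Differences between the genotypes in paralogue shares kept their sign when reads replaced reads per kb, while the shares themselves depend on the lengths used. With 1 library left out, the difference ran from 15.7 to 36.8 percentage points for Sos1 and from -9.37 to -3.08 for Map2k1. For Braf, Araf, Mapk3 and Rasgrp3 within their families it changed sign in some of these fits. For Sos1, Sos2 and Mapk3 a fold change of 2 in either direction lies inside the 95% interval, so a difference of that size was not excluded. The interval of Braf (0.343 to 1.98) holds a 2-fold fall. These intervals do not measure what would pass the FDR, since Rasgrp1 with a fold change of 2.09 did not pass it (edgeR, adjusted p = 0.686).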

Other observations

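The parallel MAPK branches that end in JNK and p38 were described by a list of 13 genes, of which 12 were tested and Mapk13 had 0 reads in every library. Their median log2 fold change was -0.08, with 5 genes higher and 7 lower in SKG. Mapk9, which encodes JNK2, was at 113, 108 and 142 CPM in BALB/c and 151, 165 and 231 CPM in SKG, without overlap (fold change 1.51, 95% interval from 1.03 to 2.20, edgeR, adjusted p = 0.871). Mapk14, which encodes p38α, was likewise higher in each SKG library, at 87.4, 170 and 176 CPM against 229, 241 and 197 CPM (edgeR, adjusted p = 0.952). Mapk11, with the highest mean CPM of the list, was at 210 to 267 CPM in BALB/c and at 243, 287 and 60.1 CPM in SKG, where replicate 3 stood far below the other libraries.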
